A study of Mus musculus with 22 samples.

Results

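The genes described here are those of the microtubule motors and their partner subunits, taken as every gene whose symbol begins with Kif or Klc followed by a digit, or with Dync, Dynl or Dctn, together with Kifap3. The rule used names and no measured value, and it found 48 of the 12596 genes in the deposited table. The mouse annotation GENCODE M21 holds 66 protein-coding genes with such names. The 18 of them outside the table, among them Kif11, Kif20a and Klc3, were not analysed here. By role the 48 were 3 kinesin-1 heavy chain genes, 3 kinesin light chain genes, 5 kinesin-2, 6 kinesin-3, 3 kinesin-4, 1 kinesin-13 and 5 other kinesin genes. The others were 5 genes of cytoplasmic dynein 1, 2 of the dynein 2 of cilia, 8 dynein light chain genes, 6 dynactin genes and Kif1bp, whose product binds kinesins and is not itself a motor.

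RNA was sequenced from 11 mice on a C57Bl/6 background that carried both a Th-cre transgene, which makes Cre recombinase under control of the tyrosine hydroxylase gene, and Slc6a2-eGFP/Rpl10a, which makes a tagged ribosomal protein under control of the noradrenaline transporter gene. The treated and the control animals shared both transgenes. In 5 animals the infused treatment was labelled hTyr (human tyrosinase, the enzyme that starts melanin synthesis). In 6 control animals it was labelled EYFP (a fluorescent protein). Whether the protein itself or a construct coding for it was infused is not stated here. Each animal gave a library of RNA bound to the immunoprecipitated tagged ribosomes (IP, labelled noradrenergic) and a library made before the precipitation (input, labelled total hindbrain); the number that the labels give to a pair of libraries is taken here as the animal, which is named by its IP library (IP_501 and so on). The design text ties the IP to the locus coeruleus, the main noradrenergic nucleus of the brainstem. Age, dose and time after infusion are not given in the sources used here.

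Levels are log2 CPM (log2 of reads scaled to the size of the library), and a difference of 1 is a doubling. The libraries held 12654489 to 25100142 reads in the table. The 48 genes had between 28 and 73811 reads in a library, and the median SD among the animals of a group was 0.15 to 0.20 in the 4 groups. All 9 noradrenergic marker genes were higher in IP than in input in both treatments. Their summed level was 521 to 1150 CPM in EYFP IP against 128 to 160 in EYFP input, and 656 to 1920 in hTyr IP against 133 to 170 in hTyr input. RNA of other cells was present in IP as well: the 8 oligodendrocyte markers summed to 5970 to 7690 CPM in EYFP IP and 6340 to 8360 in EYFP input. The 7 astrocyte markers summed to 2730 to 4040 CPM in EYFP IP and 2300 to 2810 in EYFP input, and markers of other neurons to 1210 to 1500 and 858 to 1140. Oligodendrocyte precursor markers summed to 96.2 to 121 CPM in EYFP IP and 124 to 140 in EYFP input, microglial markers to 194 to 379 and 204 to 341, and endothelial markers to 52.9 to 71.4 and 44 to 64.6. The part of these cells in the values below was not tested. In bulk libraries such as these, fewer cells of a type and less RNA per cell cannot be told apart.

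Kinesins are motor proteins that mostly walk toward the plus ends of microtubules, which in an axon means away from the cell body. Cytoplasmic dynein, with its cofactor dynactin, walks toward the minus ends and carries endosomes, mitochondria and growth factor signals back. Noradrenergic neurons of the locus coeruleus have very long, thin and branched axons, so their cargo travels far on these motors.

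IP against input asks which RNAs were more or less abundant on the tagged ribosomes than in the whole tissue sample. In EYFP animals 29 of the 48 genes passed the threshold (limma on the log2 values, p adjusted by the Benjamini-Hochberg method over all 12596 genes, under 0.05), 18 higher and 11 lower in IP. Of all genes 56.5% passed, 28.5% higher and 28.1% lower, so the members' share of 60.4% lay near that background. In hTyr animals 27 passed, 18 higher and 9 lower, where 54.4% of all genes passed, 27.4% higher and 27% lower. When each library was centred on its median, the split was 16 higher and 16 lower in EYFP animals, and 18 higher and 14 lower in hTyr animals. That centring also moved the median change over all genes, from -0.03 to -0.08 in EYFP animals and from -0.04 to -0.1 in hTyr animals. The split of all genes under it is not given here, so the members' split is not set against a background. The lowest IP library lay above the highest input library for 13 members in EYFP animals and 15 in hTyr animals, against 16.7% and 20.7% of all genes. The reverse held for 7 and 6 members, against 13.4% and 16.8%. With the animal as a replicate block 36 and 33 members passed, and 64.6% and 59.1% of all genes.

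The same genes tended to be called in both treatments, which come from separate animals. Of the 48 genes, 17 (35.4%) were higher in IP in both, against 24.2% of all genes, and 7 (14.6%) were lower in both, against 22.1%. No member was called in opposite directions, and 0.0318% of all genes were. Across the 48 genes the change in EYFP animals and that in hTyr animals had a Pearson correlation of 0.97, and across all genes it was 0.95. Genes are not independent replicates, so these are descriptions. Counting animals rather than calls, 17 members (35.4%) were higher in IP in each of the 11 animals, against 22.8% of all genes, and 9 members (18.8%) were lower in each, against 21.4%.

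**Figure D1:**
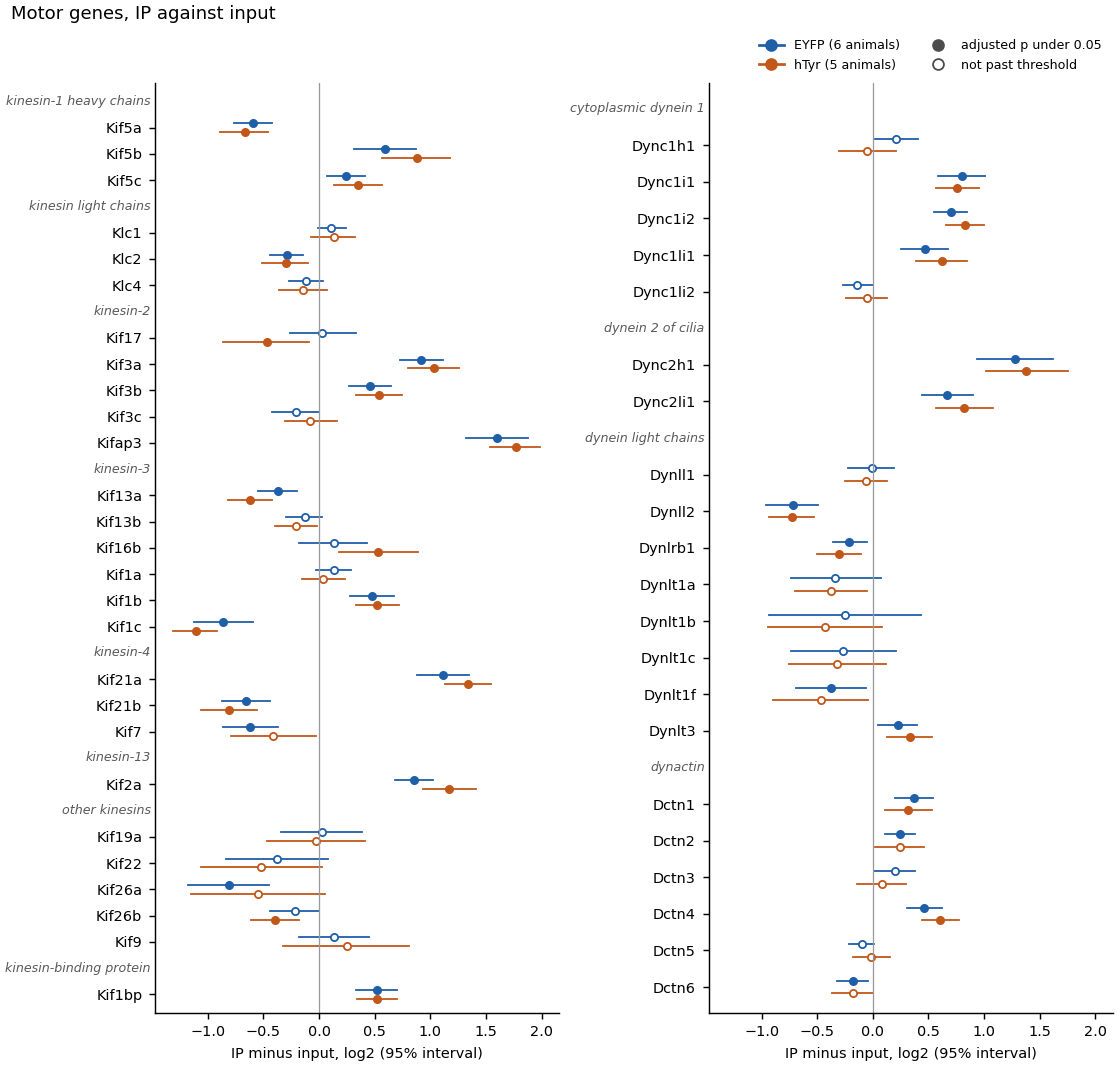
Each row is a motor gene, grouped by role, and the horizontal axis gives IP minus input in log2 units with the 95% interval from limma, for EYFP animals in blue and hTyr animals in orange; filled points passed an adjusted p of 0.05. Kifap3, at 1.6 and 1.77, lies farthest to the right and Kif1c, at -0.86 and -1.11, farthest to the left, and close relatives such as Kif21a and Kif21b lie on opposite sides of 0.

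The kinesin-1 heavy chains, which carry vesicles, mitochondria and neurofilaments along axons, split by gene. Kif5a is the neuron-specific form, Kif5b is made in nearly all cells, and Kif5c is mainly neuronal. Kif5a lay at 9.96, 10.26 and 10.29 (lowest, median and highest log2 CPM) in EYFP IP and at 10.63, 10.80 and 10.97 in EYFP input. The hTyr libraries lay at 9.80, 9.91, 9.97, 10.15 and 10.25 in IP and at 10.52, 10.59, 10.74, 10.74 and 10.86 in input. Every IP library was below every input library in both treatments. The difference was -0.59 ± 0.08 (SE; limma adjusted p = 2.01e-05) in the 6 EYFP animals and -0.67 ± 0.10 (adjusted p = 3.89e-05) in the 5 hTyr animals.

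Kif5b moved the other way. Its lowest, median and highest values were 7.48, 7.99 and 8.14 in EYFP IP and 6.75, 7.48 and 7.55 in EYFP input, with an overlap between the groups. Among hTyr animals it was 7.71, 7.75, 8.02, 8.03 and 8.16 in IP, all above the 6.47, 7.08, 7.10, 7.19 and 7.46 of input. Within an animal IP exceeded input in 11 of 11, by 0.34 to 1.24. The difference was 0.59 ± 0.13 (limma adjusted p = 0.00125) in EYFP animals and 0.88 ± 0.14 (adjusted p = 7.72e-05) in hTyr animals. A fit to values freed of their dependence on exon length and GC content, fitted library by library, gave Kif5b 0.24 and 0.38, both still past the threshold.

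Kif5c showed a smaller rise of 0.24 ± 0.08 (limma adjusted p = 0.0181) in EYFP animals and 0.35 ± 0.10 (adjusted p = 0.00957) in hTyr animals, with overlapping groups in both. Without EYFP animal IP_504 or IP_506 the change of Kif5c was 0.21 in each case, with adjusted p = 0.0505 and 0.0748, and with median centring it was 0.19 (adjusted p = 0.0508). Scaled to the length of a gene's merged exons (all its annotated exons joined), Kif5a remained the most abundant heavy chain. That length can exceed the length of the transcripts present, so shares and ranks per kilobase between genes, here and below, depend on it. It made up 75.6% ± 2.95 (SD, n = 6) of the 3 heavy chains' summed CPM per kilobase in EYFP input and 62.1% ± 3.0 in EYFP IP, and 76.4% ± 1.82 (n = 5) and 59.2% ± 2.76 in hTyr animals. The ranges of this share in IP and input did not overlap, 57.7 to 65.7% against 70.5 to 78.4% in EYFP animals. The share of Kif5b went from 5.99% ± 0.974 to 11.2% ± 1.98 in EYFP animals and from 5.45% ± 0.775 to 12.3% ± 1.78 in hTyr animals.

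The kinesin light chains link the heavy chains to cargo. Klc1, the most abundant of the 3 per kilobase, did not pass: its mean was 10.02 in EYFP IP and 9.91 in EYFP input, a difference of 0.11 ± 0.06 (limma adjusted p = 0.119). It was nonetheless a little higher in IP in 11 of 11 animals, by 0.02 to 0.20. Klc2 was lower in IP in all 11 animals, with differences of -0.49 to -0.18, at -0.29 ± 0.07 (adjusted p = 0.00213) in EYFP animals and -0.30 ± 0.10 (adjusted p = 0.0142) in hTyr animals. The Klc2 call was lost when the length and GC trend was removed (-0.09 and -0.01, adjusted p = 0.233 and 0.936), and that of Klc1 was gained (0.24 and 0.31, adjusted p = 0.002 and 0.0059). Klc4 did not pass in either treatment, at -0.12 and -0.14. As a share of the 3 genes' CPM per kilobase, Klc1 was 65.4% ± 1.18 of EYFP input and 71.1% ± 0.971 of EYFP IP.

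Kinesin-2 is a heterotrimer of 2 different motor subunits, Kif3a with Kif3b or Kif3c, and the cargo adaptor Kifap3. It drives transport in axons and into cilia. Kifap3 (chr1:163779583-163917109, mm10) showed the largest rise of the 48 genes, and it ranked 36 among 12596 genes in EYFP animals and 61 in hTyr animals. Its values were 8.15, 8.75 and 9.19 in EYFP IP against 6.89, 7.11 and 7.35 in EYFP input. In hTyr animals they were 8.50, 8.6, 8.77, 8.89 and 8.91 in IP against 6.61, 6.97, 7.02, 7.07 and 7.17 in input. No IP library came within the range of input. The rise was 1.6 ± 0.13, or 3.03-fold (limma adjusted p = 6.25e-07), in EYFP animals and 1.77 ± 0.11, or 3.40-fold (adjusted p = 6.76e-09), in hTyr animals.

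The motor subunit Kif3a rose as well, without overlap. Its lowest, median and highest values were 7.41, 7.80 and 7.96 in EYFP IP and 6.62, 6.87 and 6.95 in EYFP input. In hTyr animals it was 7.41, 7.60, 7.73, 7.80 and 8.07 in IP and 6.49, 6.66, 6.69, 6.70 and 6.92 in input. The differences were 0.92 ± 0.09 (limma adjusted p = 1.42e-06) and 1.03 ± 0.11 (adjusted p = 1.05e-06). Kif3b rose by 0.46 ± 0.09 and 0.54 ± 0.10 (adjusted p = 0.000415 and 0.000247), also without overlap.

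Kif3c, the alternative partner of Kif3a, did not share the rise. It stood at -0.21 ± 0.10 (limma adjusted p = 0.0783) in EYFP animals and -0.08 ± 0.11 (adjusted p = 0.574) in hTyr animals, and was lower in IP in 7 of 11 animals. With the animal as a replicate block the EYFP difference of Kif3c passed as a fall (adjusted p = 0.0195), as it did without animal IP_504, with quantile normalization and with median centring. Its exons share 35.3% of their bases with an antisense gene, and the sources used here do not say whether reads were counted by strand. In total 7 members share over 10% of their exonic bases with another gene. Among them are Kif1bp (10.1%), Klc2 (10.6%), Dctn6 (11.8%) and Dynlt1a (13.6%), and the part of this in their values was not tested. Per kilobase, Kif3a was 51.7% ± 2.32 of the 3 motor subunits in EYFP input and 66.7% ± 4.23 in EYFP IP, and Kif3c was 35.2% ± 1.40 and 21% ± 3.31.

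Kif17, the homodimeric kinesin-2 of dendrites, did not pass in EYFP animals (0.03 ± 0.14, limma adjusted p = 0.86). In hTyr animals it stood at -0.47 ± 0.18 (adjusted p = 0.0362). That call was lost without animal IP_502 or IP_509 (adjusted p = 0.0809 and 0.0746) and with the length and GC trend removed (-0.17, adjusted p = 0.423). With the replicate block and that trend removed together, Kif17 passed as a rise in EYFP animals (0.24, adjusted p = 0.026).

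Among the kinesin-3 genes, which move synaptic and dense-core vesicle precursors and endosomes, the 3 Kif1 genes went 3 ways. Kif1a, the main carrier of synaptic vesicle precursors, did not pass: 9.66 ± 0.13 (SD, n = 6) in EYFP IP and 9.52 ± 0.11 in EYFP input, 9.51 ± 0.17 (n = 5) in hTyr IP and 9.47 ± 0.07 in hTyr input. Its differences were 0.13 (limma adjusted p = 0.141) and 0.04 (adjusted p = 0.739), and they passed only once the length and GC trend was removed (0.31 and 0.28, adjusted p = 0.00188 and 0.00328). Kif1b rose by 0.48 ± 0.09 and 0.52 ± 0.09 (adjusted p = 0.000415 and 0.000151) and was higher in IP in 11 of 11 animals.

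Kif1c showed the largest fall in both treatments. Its lowest, median and highest values were 6.40, 6.82 and 7.18 in EYFP IP and 7.35, 7.72 and 7.91 in EYFP input. The hTyr libraries lay at 6.44, 6.58, 6.65, 6.78 and 6.86 in IP and at 7.61, 7.73, 7.80, 7.85 and 7.88 in input, with a wide gap. The change was -0.86 ± 0.12 (limma adjusted p = 3.16e-05) in EYFP animals and -1.11 ± 0.09 (adjusted p = 6.28e-08) in hTyr animals. Kif1c made up 21.9% ± 1.80 of the 3 Kif1 genes' CPM per kilobase in EYFP input and 12% ± 2.76 in EYFP IP, and 23.9% ± 1.51 and 11.6% ± 1.78 in hTyr animals.

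Kif13a, a kinesin-3 of endosomes and of melanosome biogenesis in pigment cells, fell by 0.37 ± 0.08 and 0.62 ± 0.09 (limma adjusted p = 0.00131 and 3.22e-05) and was lower in IP in all 11 animals. Kif13b did not pass in either treatment (-0.13 and -0.21, adjusted p = 0.149 and 0.0524). In hTyr animals Kif13b passed as a fall with the replicate block (adjusted p = 0.0494), without animal IP_502 (-0.28, adjusted p = 0.0386), with a shared spread and with the upper 75% of genes. With quantile normalization and with median centring it passed in both treatments. Kif16b, an endosomal kinesin, was called in hTyr animals, at 0.53 ± 0.17 (adjusted p = 0.0135), and not in EYFP animals, at 0.13 ± 0.15 (adjusted p = 0.471). Its call was lost without animal IP_501 (0.37, adjusted p = 0.0657) or IP_508 (0.49, adjusted p = 0.0541) and with the length and GC trend removed (0.33, adjusted p = 0.0799).

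The kinesin-4 pair Kif21a and Kif21b, which pause and regulate microtubule growth, parted. Kif21a lay at 7.46, 7.91 and 8.25 in EYFP IP and at 6.59, 6.79 and 7.0 in EYFP input. Among hTyr animals it was 7.69, 7.97, 8.03, 8.07 and 8.13 in IP and 6.38, 6.61, 6.66, 6.67 and 6.85 in input. All IP libraries lay above all input libraries, with a rise of 1.11 ± 0.11 (limma adjusted p = 1.43e-06) and 1.34 ± 0.10 (adjusted p = 2.58e-08).

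Kif21b lay at 5.02, 5.18 and 5.69 in EYFP IP and at 5.73, 5.92 and 6.12 in EYFP input. In hTyr animals it was 4.75, 5.17, 5.26, 5.35 and 5.42 in IP and 5.76, 5.96, 6.04, 6.12 and 6.13 in input. Here all IP libraries lay below all input libraries, by 0.66 ± 0.10 (adjusted p = 6.39e-05) and 0.81 ± 0.12 (adjusted p = 2.68e-05) in the limma fits. With the length and GC trend removed the changes of Kif21b were -0.44 and -0.50, both still past the threshold. Per kilobase Kif21a made up 77.1% ± 2.94 of the pair in EYFP input and 91.7% ± 2.86 in EYFP IP, and 74.3% ± 4.0 and 92.8% ± 1.15 in hTyr animals.

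The third kinesin-4 gene, Kif7, a component of Hedgehog signalling in cilia, was scarce, at 1.03 CPM per kilobase in EYFP IP. It fell by 0.62 ± 0.11 in EYFP animals (limma adjusted p = 0.000293), without overlap, and stood at -0.41 ± 0.18 in hTyr animals (adjusted p = 0.0625). Without hTyr animal IP_502 the latter was -0.55 (adjusted p = 0.0329), and it also passed with median centring, with a spread shared over all libraries, without the mean-variance trend and with voom on the recovered reads. With the length and GC trend removed Kif7 stood at -0.12 in hTyr animals (adjusted p = 0.547) and at -0.42 in EYFP animals (adjusted p = 0.00642). Of the exonic bases of Kif7, 19.1% are shared with an antisense gene.

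Kif2a is a kinesin-13, which shortens microtubules rather than walking on them and limits the growth of axon branches. It lay at 5.85, 6.05 and 6.34 in EYFP IP and at 5.15, 5.18 and 5.34 in EYFP input. The hTyr libraries lay at 6.05, 6.10, 6.11, 6.17 and 6.42 in IP and 4.61, 4.99, 5.06, 5.13 and 5.21 in input, so all IP libraries exceeded all input libraries. The rise was 0.85 ± 0.08 (limma adjusted p = 1.01e-06) and 1.17 ± 0.11 (adjusted p = 3.26e-07). Kif2a had the lowest GC content of the 48 genes, 38.6%, and with the length and GC trend removed its rise was 0.44 and 0.59 and still passed. Its exons share 19.2% of their bases with Dimt1 on the opposite strand.

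The other 5 kinesins were all scarce, at 4.78 or less on the log2 scale in every group mean. Kif26a fell in EYFP animals by 0.81 ± 0.17 (limma adjusted p = 0.000873) and stood at -0.55 ± 0.28 in hTyr animals (adjusted p = 0.11). Kif26b stood at -0.22 ± 0.10 (adjusted p = 0.0767) in EYFP animals and fell by 0.40 ± 0.10 (adjusted p = 0.00369) in hTyr animals. Kif26a and Kif26b are relatives without motor activity. With the animal as a replicate block each of these genes passed as a fall in both treatments. Adjusted p was then 0.0347 for Kif26a in hTyr animals and 0.0317 for Kif26b in EYFP animals. With the length and GC trend removed these 2 differences were -0.13 each (adjusted p = 0.715 and 0.254). They did not pass with the block added either (adjusted p = 0.623 and 0.13). The fall of Kif26a in EYFP animals (-0.52) and that of Kif26b in hTyr animals (-0.25) still passed with the trend removed. Kif9, Kif19a and Kif22 passed in neither treatment and differed by -0.52 to 0.25, with SEs of 0.15 to 0.27. With the block and the trend removed together, Kif22 passed as a fall in hTyr animals (-0.53, limma adjusted p = 0.0485). Kif1bp, needed for axon growth and mitochondrial transport, rose by 0.52 ± 0.09 in both treatments (adjusted p = 0.000129 and 8.38e-05), without overlap.

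**Figure D2:**
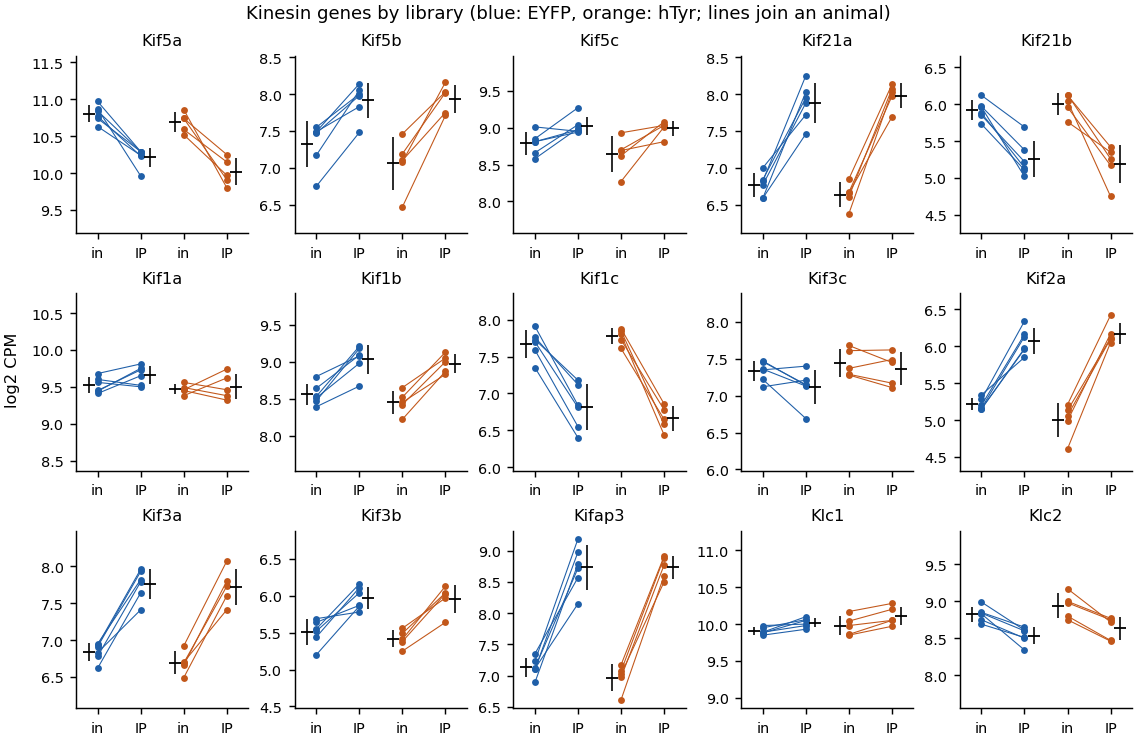
Log2 CPM of 15 kinesin genes in each library, with lines joining the input (in) and IP library of an animal, EYFP animals in blue and hTyr animals in orange, and black marks for the mean and SD of a group; each panel has its own vertical axis. The lines of Kifap3, Kif3a, Kif21a, Kif2a and Kif5b rise in every animal, those of Kif5a, Kif1c, Kif21b and Klc2 fall in every animal, and those of Kif1a run in both directions.

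Cytoplasmic dynein 1 is built from a heavy chain that holds the motor, and from intermediate and light intermediate chains that hold the cargo and dynactin. The heavy chain gene, Dync1h1, did not pass, at 0.21 ± 0.09 (limma adjusted p = 0.0591) in EYFP animals and -0.05 ± 0.12 (adjusted p = 0.757) in hTyr animals. In EYFP animals it passed with the replicate block (adjusted p = 0.0227), with the length and GC trend removed (0.32, adjusted p = 0.00707) and without animal IP_507 (0.29, adjusted p = 0.0119).

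Both intermediate chain genes rose. The neuronal form Dync1i1 had lowest, median and highest values of 7.28, 7.61 and 7.93 in EYFP IP and 6.67, 6.82 and 7.11 in EYFP input. Among hTyr animals it lay at 7.40, 7.50, 7.67, 7.69 and 7.77 in IP and at 6.73, 6.77, 6.81, 6.89 and 7.02 in input, and the groups did not overlap in either treatment. The rises were 0.80 ± 0.10 (limma adjusted p = 7.88e-06) and 0.76 ± 0.09 (adjusted p = 2.56e-06). The broadly expressed form Dync1i2 rose by 0.70 ± 0.07 (adjusted p = 1.99e-06) and 0.83 ± 0.08 (adjusted p = 3.97e-07), and by 0.33 and 0.32 with the length and GC trend removed. Dync1i1 made up 75.8% ± 1.91 of their CPM per kilobase in EYFP input and 77.1% ± 1.35 in EYFP IP.

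The light intermediate chains parted. Dync1li1 rose by 0.47 ± 0.10 (limma adjusted p = 0.00102) and 0.62 ± 0.11 (adjusted p = 0.000145), and Dync1li2 stood at -0.14 ± 0.06 (adjusted p = 0.0796) and -0.05 ± 0.09 (adjusted p = 0.615). Dync1li2 was past the threshold as a fall in EYFP animals with the replicate block (adjusted p = 0.0479), with quantile normalization and with median centring. It also passed there with the length and GC trend removed (-0.20, adjusted p = 0.00852). With the block and that trend removed together, Dync1li2 passed as a fall in hTyr animals too (-0.17, adjusted p = 0.0309). Dync1li1 went from 27.2% ± 1.76 of the pair per kilobase in EYFP input to 36.3% ± 3.38 in EYFP IP.

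Dynein 2 is the motor that returns cargo along cilia, and both of its genes in the table rose. Its heavy chain Dync2h1 lay at 4.04, 4.76 and 4.96 in EYFP IP and at 2.90, 3.49 and 3.67 in EYFP input. In hTyr animals it was 4.21, 4.29, 4.44, 4.52 and 4.71 in IP and 2.49, 2.86, 3.06, 3.23 and 3.61 in input, without overlap. The rise was 1.28 ± 0.16 (limma adjusted p = 8.53e-06) and 1.38 ± 0.17 (adjusted p = 6.06e-06), the next largest after Kifap3 in both treatments. Dync2li1, its light intermediate chain, rose by 0.67 ± 0.11 and 0.82 ± 0.12 (adjusted p = 8.79e-05 and 2.91e-05). The level of Dync2h1 itself was low, 1.56 ± 0.304 CPM per kilobase (SD, n = 6) in EYFP IP, against 30.5 ± 2.32 for Dync1h1. The 4 ependymal and ciliated cell markers in the table were, summed, 34.2 to 49.0 CPM in EYFP IP and 43.1 to 61.6 in EYFP input. In each treatment 2 of the 4 passed as falls, Foxj1 and Cfap126 in EYFP animals and Foxj1 and Ccdc153 in hTyr animals. Rsph1 passed in neither (-0.05 and -0.02).

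The dynein light chains are small dimers shared between dynein and many other proteins. Dynll2 was the most abundant of the 48 genes per kilobase in all 4 groups, at 585 ± 101 CPM per kilobase in EYFP IP and 958.5 ± 99.8 in EYFP input. It lay at 10.40, 10.56 and 10.95 in EYFP IP and at 11.16, 11.31 and 11.57 in EYFP input. The hTyr libraries lay at 10.54, 10.65, 10.79, 10.80 and 10.81 in IP and 11.33, 11.35, 11.41, 11.49 and 11.66 in input, with every IP library lower. The fall was 0.72 ± 0.11 (limma adjusted p = 5.02e-05) and 0.73 ± 0.10 (adjusted p = 9.83e-06).

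Its close relative Dynll1 did not pass, at -0.01 ± 0.10 (limma adjusted p = 0.915) and -0.06 ± 0.09 (adjusted p = 0.609). Dynlrb1, of the roadblock type, fell by 0.21 ± 0.07 (adjusted p = 0.0225) and 0.30 ± 0.09 (adjusted p = 0.0093) with overlapping groups. The Dynlrb1 call in EYFP animals was lost without animal IP_504, IP_506 or IP_512 (adjusted p = 0.0971, 0.0842 and 0.062), and that in hTyr animals with the length and GC trend removed (-0.17, adjusted p = 0.0783).

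Dynlt3 rose by 0.23 ± 0.08 (limma adjusted p = 0.028) and 0.33 ± 0.09 (adjusted p = 0.00793). With a GC content of 38.9% it is close to the low end of the 48 genes, and once the length and GC trend was removed its change was -0.05 in both treatments (adjusted p = 0.58 and 0.581). The EYFP call of Dynlt3 was also lost without animal IP_504, IP_505 or IP_507 (adjusted p = 0.0555, 0.0884 and 0.0548), with quantile normalization and with median centring.

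Mice have 4 closely related Dynlt1 genes within a stretch of chromosome 17, with coding sequences of 342 bases each. Those of Dynlt1a, Dynlt1c and Dynlt1f are identical, and Dynlt1b differs by 1 base (99.7% identity). The first 60 bases of each, 5′ to 3′ from GENCODE M21 on mm10, are shown because they are so alike; the capital letter is coding position 21, counted from the A of the start codon, where Dynlt1b carries C21A relative to the others.
Dynlt1a (chr17:6306340-6317500, minus strand): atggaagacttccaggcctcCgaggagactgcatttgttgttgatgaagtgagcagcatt
Dynlt1b (chr17:6430112-6436296, plus strand): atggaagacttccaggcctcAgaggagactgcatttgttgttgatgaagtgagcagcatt
Dynlt1c (chr17:6601671-6609774, plus strand): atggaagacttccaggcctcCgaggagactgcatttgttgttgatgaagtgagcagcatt
Dynlt1f (chr17:6646602-6655900, minus strand): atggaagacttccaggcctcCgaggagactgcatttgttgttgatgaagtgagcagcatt

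All 4 Dynlt1 genes had negative differences in both treatments, from -0.25 to -0.47, and SDs of up to 0.76 among animals of a group. Dynlt1f passed in EYFP animals (-0.38 ± 0.15, limma adjusted p = 0.0393), a call lost without animal IP_504, IP_506, IP_507 or IP_512 (adjusted p = 0.0632 to 0.145). With the replicate block Dynlt1a passed in both treatments (adjusted p = 0.0414 and 0.0271), Dynlt1c in EYFP animals (adjusted p = 0.0339), and Dynlt1b and Dynlt1f in hTyr animals (adjusted p = 0.0078 and 0.00968). Only the coding bases were compared, out of merged exons of 771 to 4267 bases, and how reads were divided among the 4 genes was not tested, so the value of each is uncertain.

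Dynactin joins dynein to its cargo and keeps it on the microtubule. Dctn1, the large p150 subunit that grips the microtubule, lay at 8.71, 8.92 and 9.11 in EYFP IP and at 8.39, 8.52 and 8.70 in EYFP input. Among hTyr animals it was 8.63, 8.78, 8.87, 8.91 and 9.08 in IP and 8.38, 8.39, 8.54, 8.58 and 8.79 in input, so that the hTyr groups overlapped and the EYFP groups did not. The rise was 0.37 ± 0.08 (limma adjusted p = 0.00118) and 0.32 ± 0.10 (adjusted p = 0.0119). It was 0.60 and 0.64 with the length and GC trend removed, and 0.27 (adjusted p = 0.0588) without hTyr animal IP_502.

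Dctn4 rose by 0.46 ± 0.07 and 0.60 ± 0.08 (limma adjusted p = 6.97e-05 and 9.03e-06), without overlap. Once the length and GC trend was taken out it was 0.08 in both treatments (adjusted p = 0.324 and 0.446), and the GC content of Dctn4 is 41.1%. Dctn2, the subunit dynamitin, differed by 0.24 in each treatment, called in EYFP animals (SE 0.07, adjusted p = 0.00447) and not in hTyr animals (SE 0.11, adjusted p = 0.0625). Within animals it was higher in IP in 11 of 11, by 0.07 to 0.50, and with the replicate block it passed in hTyr animals too (adjusted p = 0.0116). Dctn3 stood at 0.20 (adjusted p = 0.0648) and 0.08 (adjusted p = 0.531), and passed in EYFP animals with the replicate block (adjusted p = 0.00464) and without animal IP_504 (adjusted p = 0.0164).

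The remaining dynactin genes are subunits of the pointed end of its actin-like filament. Dctn5 did not pass (-0.10 and -0.02), but it did as a fall in EYFP animals with median centring (-0.15, adjusted p = 0.024) and with the length and GC trend removed (-0.16, adjusted p = 0.0122). Dctn6 was called as a fall of 0.18 in EYFP animals (SE 0.07, limma adjusted p = 0.0322) and not in hTyr animals, with the same difference (SE 0.09, adjusted p = 0.0832). Dctn6 was lower in IP in 11 of 11 animals, yet its EYFP call was lost without animal IP_506, IP_507 or IP_512 (adjusted p = 0.122, 0.0532 and 0.0937). In hTyr animals Dctn6 passed with a shared spread, quantile normalization, median centring or the length and GC trend removed (adjusted p = 0.0423, 0.0263, 0.0237 and 0.0249). Dctn2 and Kif5a are neighbours on chromosome 10 in opposite orientation, with 3019 bases between them, and their changes had opposite signs in every animal.

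**Figure D3:**
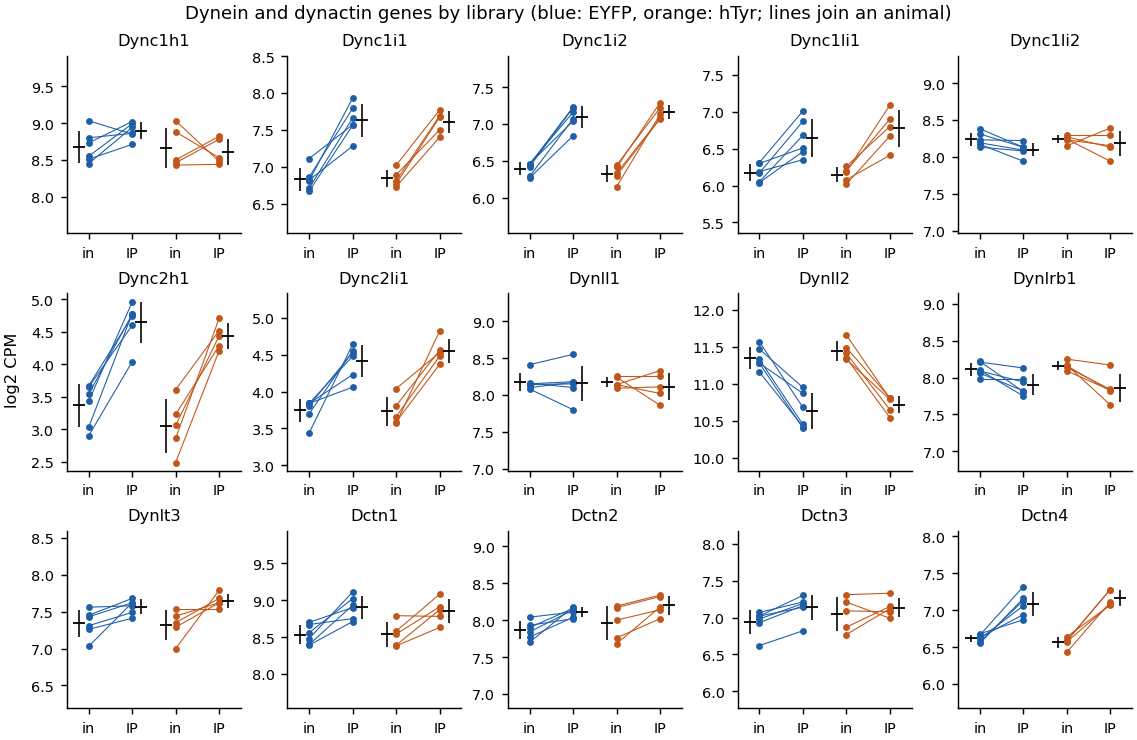
Log2 CPM of 15 dynein and dynactin genes in each library, drawn as for the kinesin genes, with lines joining the libraries of an animal, EYFP in blue, hTyr in orange, and black marks for the mean and SD. Dync1i1, Dync1i2, Dync1li1, Dync2h1, Dync2li1 and Dctn4 rise in every animal, Dynll2 falls in every animal, and Dync1h1 and Dynll1 run in both directions.

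The animals differed in how strongly the noradrenergic markers were enriched. The summed markers were 3.60 times as high in IP as in input in EYFP animal IP_511 and 11.5 times in hTyr animal IP_501, the lowest and highest ratios. Kifap3 differed by 1.22 in animal IP_511, 1.99 in animal IP_501 and, at the lowest, 1.05 in animal IP_505, whose marker ratio was 5.04. Kif21a differed by 0.72 and 1.65 in animals IP_511 and IP_501, its lowest and highest values, and Kif2a by 0.51 and 1.45, likewise its extremes. Of the 48 genes 11 had their lowest difference in animal IP_511 and 13 their highest in animal IP_501. Animals IP_509 and IP_510 each held 8 of the lowest differences, and animals IP_504 and IP_509 each held 7 of the highest. The same counts over all genes are not given here. Kif5a had its lowest difference, -1.06, in hTyr animal IP_509, whose ratio was 5.50. The part of the marker ratio in these differences was not tested.

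The change between IP and input ran with base composition. Among the 24 members with the lower GC content of their exons, 38.6 to 49.0%, 14 were higher and 2 lower in IP in EYFP animals, and 14 and 0 in hTyr animals. Of the 5243 genes in that range of GC content 40.5% were higher and 20.5% lower in EYFP animals, and 42.5% and 15% in hTyr animals. Among the 24 with higher GC content, 49.1 to 61.7%, 4 were higher and 9 lower in each treatment. Of the 6483 genes in that range 18.6% were higher and 34.1% lower in EYFP animals, and 14.8% and 35.9% in hTyr animals. Across the 48 genes the Spearman correlation of the change with GC content was -0.54 in EYFP animals and -0.61 in hTyr animals. Across the 12375 genes with both an exon length and a GC content it was -0.34 and -0.44, with the same sign. These correlations are across genes of the same libraries and are descriptions. With the trend of each library on length and GC content removed, the correlation over the members was -0.31 and -0.33, and 32 members passed in EYFP animals and 26 in hTyr animals, against 56.2% and 52.7% of all genes. The rises of Kifap3 (1.46 and 1.54), Kif21a (1.05 and 1.23), Dync2h1 (0.96 and 0.96) and Kif3a (0.88 and 0.95) and the falls of Kif1c (-0.71 and -0.91), Dynll2 (-0.68 and -0.65) and Kif5a (-0.46 and -0.50) still passed.

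**Figure D4:**
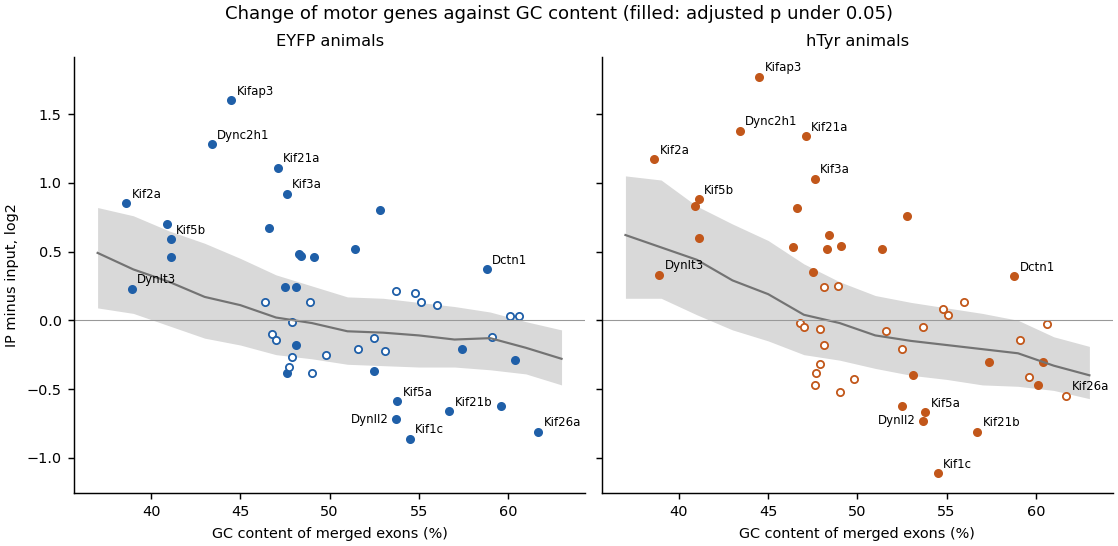
IP minus input in log2 units (vertical) against the GC content of a gene's merged exons in percent (horizontal), in EYFP animals (left) and hTyr animals (right), with filled points for members past an adjusted p of 0.05; the grey line and band are the median and the middle 50% of all genes in bins of 2 percentage points. Kif2a and Dynlt3, at 38.6 and 38.9% GC, have changes of 0.85 and 0.23 in EYFP animals, and Kifap3, Kif21a and Dync2h1 lie above the band in both panels.

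Genes that work with the motors, from a list that was drawn up with earlier results of these data known, also went both ways. Of 46 adaptors and regulators 40 were in the table, and in each treatment 19 were higher in IP, 12 lower and 9 not past the threshold. Of all genes 28.5% were higher and 28.1% lower in EYFP animals, and 27.4% and 27% in hTyr animals. The median change was 0.16 in EYFP animals and 0.15 in hTyr animals, against -0.03 and -0.04 over all genes. Pafah1b1, the dynein regulator LIS1, rose by 0.88 ± 0.11 and 1.11 ± 0.11 (limma adjusted p = 6.3e-06 and 3.61e-07), and its partners Nde1 and Ndel1 fell by 0.50 ± 0.08 and 0.37 ± 0.06 in EYFP animals (adjusted p = 9.83e-05 and 0.000132). Of the proteins that hold kinesin on mitochondria, Rhot1 rose by 0.59 ± 0.08 and 0.75 ± 0.08, and Rhot2 fell by 0.66 ± 0.09 and 0.85 ± 0.10. The adaptor Trak1 fell by 0.71 ± 0.08 and 0.75 ± 0.09. The actin-related dynactin subunits Actr1a and Actr10 rose by 0.37 and 0.67 in EYFP animals, and Actr1b did not pass (-0.11, limma adjusted p = 0.196).

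The tubulin genes that passed all moved one way. Of the 12 tubulin genes 11 were higher in IP in EYFP animals and 10 in hTyr animals, none was lower, and the median change was 0.68 and 0.72. Of all genes 28.5% and 27.4% were higher. Tubb2a, with 1.04 ± 0.10 (limma adjusted p = 1.16e-06) in EYFP animals, and Tubb3, a neuronal tubulin, with 0.92 ± 0.10 (adjusted p = 2.71e-06), were among them. Of the 22 microtubule-associated protein genes 9 were higher, 5 lower and 8 not past the threshold in EYFP animals, and 9, 3 and 10 in hTyr animals. Of all genes 56.5% and 54.4% passed in either direction. Mapt, the gene of tau, differed by 0.03 and -0.01. Of the minus-end kinesins, which the naming rule leaves out, Kifc2 fell by 0.74 ± 0.12 and 0.91 ± 0.09 and Kifc3 did not pass.

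The comparison of hTyr with EYFP asks whether the hTyr treatment went with a change in motor gene levels. None of the 48 genes passed in IP, where 7 of 12596 genes did (0.0556%), or in input, where 1 did (0.00794%). That gene was Slc6a2, the noradrenaline transporter whose regulatory sequence drives the tag, at -0.91 ± 0.13 (limma adjusted p = 0.0339) in hTyr input. Without adjustment 3 members (6.25%) had p under 0.05 in IP, against 6.19% of all genes, and 1 (2.08%) in input, against 3.03%. Of the 48 differences in IP 22 were above 0 and 26 below, from -0.46 to 0.25. The 95% interval of the difference lay within 1 log2 unit of 0 for all 48 genes in IP and in input, and within 0.5 for 38 and 42 of them.

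The smallest p in IP belonged to Dync1h1, the dynein heavy chain. It lay at 8.44, 8.48, 8.53, 8.78 and 8.82 in hTyr IP and at 8.71, 8.90 and 9.02 (lowest, median and highest) in EYFP IP, with overlapping groups. The difference was -0.29 ± 0.09, with a 95% interval of -0.48 to -0.09 (limma adjusted p = 0.683). In input the difference of Dync1h1 was -0.02 ± 0.12. With the length and GC trend removed it was -0.15 in IP.

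Kif17 had the next smallest p in IP. Its values were 2.65, 3.48, 3.50, 3.56 and 3.74 in hTyr IP and 3.52, 3.75 and 4.31 in EYFP IP, the low value being that of animal IP_510. The difference was -0.46 ± 0.19 (limma adjusted p = 0.776). Kif26b differed by -0.22 ± 0.10 (adjusted p = 0.791). In input the smallest p belonged to Kif2a, which lay at 4.61, 4.99, 5.06, 5.13 and 5.21 in hTyr input and at 5.15, 5.18 and 5.34 in EYFP input, a difference of -0.21 ± 0.09 (limma adjusted p = 0.99). With the length and GC trend removed that difference was -0.11. The input differences had a Spearman correlation with GC content of 0.54 over the members and 0.41 over all genes. Kif16b (-0.35 ± 0.17) and Kif3a (-0.14 ± 0.08) followed in input, both with adjusted p = 0.99.

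For the genes that differed most between IP and input, the difference between treatments in IP did not pass the threshold. It was 0.00 ± 0.14 for Kifap3 (95% interval -0.30 to 0.31), 0.09 ± 0.12 for Kif21a (-0.16 to 0.35), -0.15 ± 0.13 for Kif1c (-0.43 to 0.12) and -0.20 ± 0.10 for Kif5a (-0.41 to 0.01). For Dctn1 it was -0.05 ± 0.10 (-0.25 to 0.15), and for Kif5b 0.02 ± 0.12 (-0.22 to 0.27). None of the 40 adaptors, 12 tubulins and 22 microtubule-associated protein genes passed in IP or in input.

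**Figure D5:**
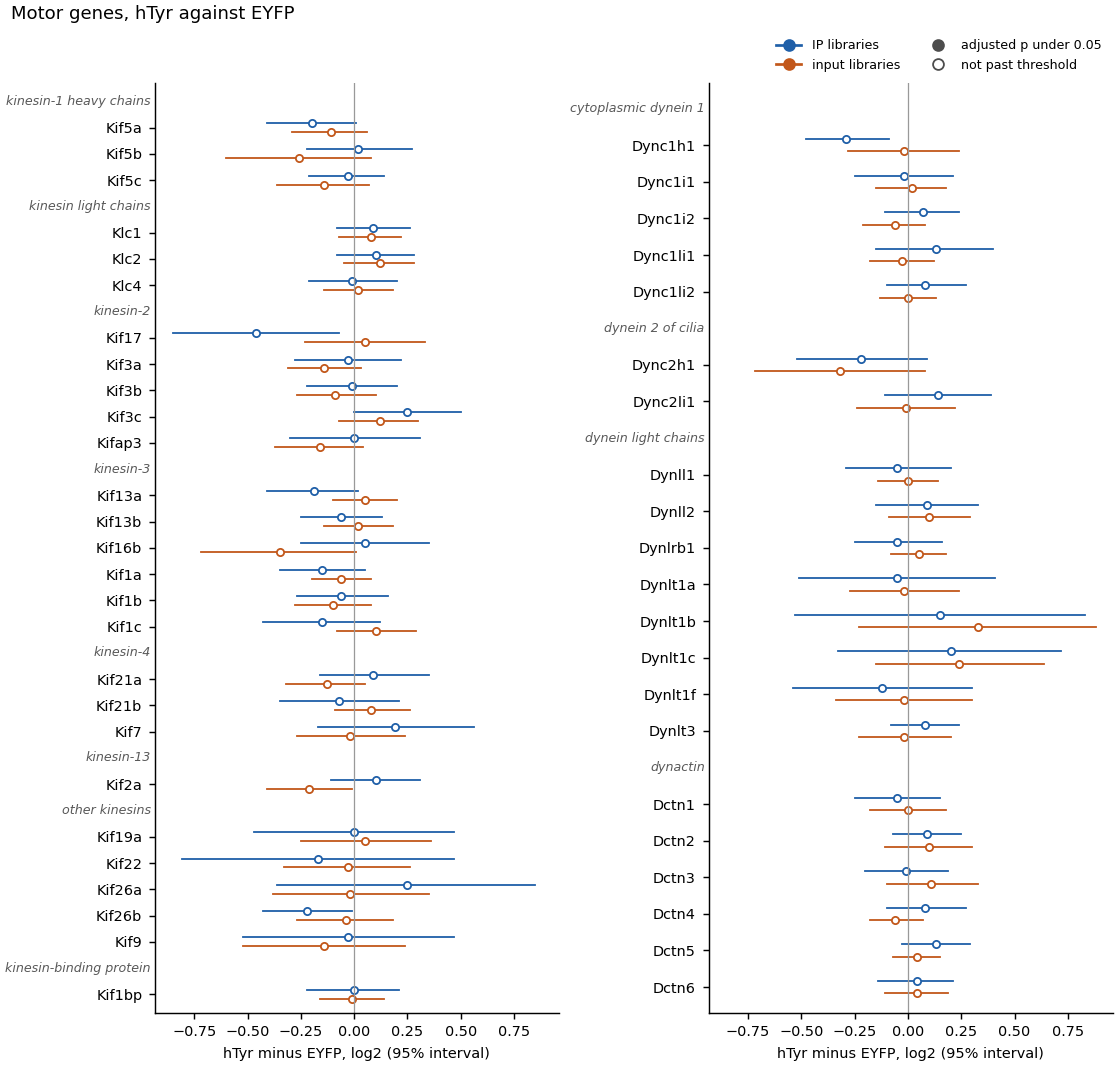
Each row is a motor gene, grouped by role, and the horizontal axis gives hTyr minus EYFP in log2 units with the 95% interval from limma, for IP libraries in blue and input libraries in orange. All points are open, since no gene passed an adjusted p of 0.05, and the widest intervals in IP are those of Kif22, Dynlt1b and Kif26a.

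Whether the change between IP and input itself depended on the treatment was tested as an interaction over the 22 libraries. No member passed, and 1 of all genes did (0.00794%). With p under 0.05 before adjustment were 2 members (4.17%, against 3.31% of all genes). Kif2a had the smallest p, with a rise in IP that was larger by 0.31 ± 0.14 in hTyr than in EYFP animals (limma adjusted p = 0.996). With the length and GC trend removed that value was 0.15. The interaction had a Spearman correlation with GC content of -0.55 over the members and -0.49 over all genes. Kif17 differed by -0.51 ± 0.24 (adjusted p = 0.996). For Kif13a the fall was larger by 0.25 ± 0.12 in hTyr animals (adjusted p = 0.996). Kif7, Kif26a, Dctn2, Dctn6 and Dynlt1f were called in EYFP animals alone and Kif16b, Kif17 and Kif26b in hTyr animals alone, and the interaction passed for none of them (adjusted p of 0.996 or more). This fit did not pair the IP and input libraries of an animal. In it the 95% interval of the interaction lay within 1 log2 unit of 0 for 47 of the 48 genes. Dynlt1b was the exception (-1.11 to 0.76). Within animals its IP minus input ran from -0.54 to 0.12 in EYFP and from -0.71 to -0.31 in hTyr animals. With the animal as a replicate block no member passed either (lowest limma adjusted p = 0.646, Kif17), and the intervals of that fit are not given here.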

How the data were processed

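The deposited table holds 12596 genes as log2 values per library. The submitters' processing notes name STAR, featureCounts and mm10; versions, normalization and the filter on genes are not given in the sources used here. The deposited log2 values matched log2 CPM with a prior count averaging 2 reads: 100% of low values were whole reads within 0.05, which gave the depths. limma 3.58.1 (R 4.3.3; lmFit and eBayes with trend) was fitted to the log2 values, with Benjamini-Hochberg adjustment over all 12596 genes and a threshold of 0.05, and was tested on simulated data. Of the genes, 12380 matched GENCODE M21 and gave exon lengths, and 12375 also GC content. The members, gene lists and tests were chosen with earlier results of these data known. A fixed list of 26 members was named throughout, with the largest non-overlapping calls or, where no member passed, the 3 smallest p. The remaining members, Klc4, Kif13b, Kif9, Kif19a, Kif22, Dctn5 and the Dynlt1 genes among them, are outside that rule and stand under their role. Kif16b falls under the rule only for hTyr against EYFP in input. Replicate numbers in the labels pair IP with input: deviations from the group means correlated at 0.279 to 0.626 in all 11 pairs (mean 0.448, other animals -0.043), so a replicate block was an alternative. Other alternatives changed the scaling, filter, pseudocount, variance model and length and GC trend, or left out 1 animal. No column of other samples was used.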

Additional observations from a re-analysis of the deposited data

Results flagged for a closer look

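In 15 of the 192 combinations of member and group, 1 library lay farther from the others than Dixon's 95% limit allows; chance gives about 1 in 20, or 9.6. In EYFP animal IP_504 these were Dctn3 in IP (6.82) and input (6.62), Kif13b in input (5.50), Kif22 in IP (0.84) and Kif5c in IP (9.27). In EYFP animal IP_507 they were Kif5a in IP (9.96), Kif3c in IP (6.69) and Dync2li1 in input (3.44), and in EYFP animal IP_505 Dynll1 in input (8.41). In hTyr animal IP_501 they were Dctn5 (7.04), Kif16b (2.73), Kif26a (3.04) and Kif9 (1.42), all in input. The other two were Kif17 in the IP of hTyr animal IP_510 (2.65) and Kif5c in the IP of hTyr animal IP_508 (8.81). All values are log2 CPM.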

How the results depend on the processing

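No member passed in either treatment comparison or the interaction under any alternative run, and the lowest adjusted p were 0.395 (Kif17 in IP), 0.571 (Kif3a in input) and 0.646 (Kif17, interaction). For IP against input, leaving out 1 animal gave 25 to 30 called members in EYFP animals and 26 to 28 in hTyr animals, and other settings 26 to 36 and 26 to 33. Of all genes, up to 12596 tested, leaving out 1 animal gave 6091 to 7331 calls in EYFP animals and 5895 to 6428 in hTyr animals. Other settings gave 5747 to 8133 and 5563 to 7440, so the calls of all genes varied with the setting too. The highest counts, 36 and 33, came from the replicate block, under which no call was lost. The block with the length and GC trend removed gave the same totals but lost Dctn4, Dynlt3 and Klc2 in both treatments and Kif16b and Kif17 in hTyr animals. Over all recomputed values 23 calls were lost and 37 gained in EYFP animals, and 14 and 42 in hTyr animals. Dynlt3 alone changed sign after a call, to -0.05 in both treatments with the length and GC trend removed, with and without the block; the cause was not tested. Uncalled values changed sign in 79, 104 and 61 cases in the IP, input and interaction comparisons. Over all genes, calls in IP between treatments were 3 to 11 when 1 animal was left out and 14 with a shared spread, against 7. In input they were 0 to 2 and 0, against 1, and for the interaction 0 to 5, against 1, with 5 under the block and 6 with the block and the trend removed. Depth limits Kif22, Kif26a and Kif9 most, which had 28, 35 and 52 reads at their lowest, and with the upper 75% of genes by mean value 11 members were not tested.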
